A study of Mus musculus with 12 samples.

Results

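The microRNA repertoire of cultured mouse cardiac nonmyocytes was taken from 3 small RNA libraries, out of 12 samples in the series. They were chosen by their labels alone, as all 3 small RNA libraries of the nonmyocyte fraction. The cells came from hearts of wild-type female FVB/NJ mice, an inbred strain, aged 12 weeks. Hearts were perfused on a Langendorff apparatus, digested with collagenase and separated by gravity into a myocyte and a nonmyocyte fraction. Nonmyocytes were then grown in culture until fibroblasts made up most of the cells. The treatment text gives 2 passages while the cell type label reads P1, and the labels do not say which heart, of 3, each library came from. Variation between libraries, as given below, can thus be technical in whole or in part. The fraction's 3 polyadenylated RNA libraries were used only to check the cell type, and no other group was used.

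MicroRNAs are short RNAs cut from hairpin precursors by Drosha and Dicer. Usually 1 arm of the hairpin, the 5p or the 3p arm, is kept by an Argonaute protein, and the other is degraded. The kept strand finds its target messenger RNAs mainly through its seed, bases 2 to 8 from the 5′ end. MicroRNAs with the same seed form a family, and their targets overlap widely. Fibroblasts are the main matrix-producing cells of the heart. Among their well-studied microRNAs are miR-21, linked to fibroblast growth and survival, miR-29, which represses collagen messenger RNAs, and miR-143 with miR-145, known from smooth muscle and other mesenchymal cells.

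The sequences that carry the ranking and the family shares are given here, from RefSeq (GRCm38.p6), 5′ to 3′ with the seed in capitals. miR-22-3p, miR-21a-5p, miR-191-5p and miR-127-3p are shown because each was the only counted member of an abundant seed family. miR-24-3p is shown because library 3 stood apart in it.
miR-22-3p: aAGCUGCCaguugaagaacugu
miR-21a-5p: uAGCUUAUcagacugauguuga
miR-191-5p: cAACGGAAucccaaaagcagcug
miR-127-3p: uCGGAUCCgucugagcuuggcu
miR-24-3p: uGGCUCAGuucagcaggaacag

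The 9 counted members of the let-7 seed family differ from each other only outside the seed. Substitutions are given from let-7i-5p, with positions counted from 1 at its 5′ end. let-7f-5p carries U12A, G17A, C18U and U19A. let-7c-5p carries U12G, G17A, C18U and U19G, and let-7a-5p differs from it in the last of these, with U19A. let-7d-5p also differs in the first base, U1A.
let-7i-5p: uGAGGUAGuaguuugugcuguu
let-7f-5p: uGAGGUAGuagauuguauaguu
let-7c-5p: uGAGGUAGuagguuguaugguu
let-7a-5p: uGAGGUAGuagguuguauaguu
let-7b-5p: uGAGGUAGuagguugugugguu
let-7d-5p: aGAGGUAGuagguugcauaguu
let-7e-5p: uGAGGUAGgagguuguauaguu
let-7g-5p: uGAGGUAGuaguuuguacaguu
miR-98-5p: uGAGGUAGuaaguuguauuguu

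The other abundant families with more than 1 counted member are shown for how close their members are. miR-10b-5p differs from miR-10a-5p by U12A, miR-27a-3p from miR-27b-3p by U19C, and miR-30e-5p from miR-30a-5p by C13U. A read that ends early or carries an error at such a base can fall on the other member. The opposite arms of the miR-125b hairpins are included because their level turned out to be high.
miR-10a-5p: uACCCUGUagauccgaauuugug
miR-10b-5p: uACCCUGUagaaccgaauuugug
miR-27b-3p: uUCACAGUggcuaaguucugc
miR-27a-3p: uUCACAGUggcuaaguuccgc
miR-30a-5p: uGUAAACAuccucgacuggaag
miR-30c-5p: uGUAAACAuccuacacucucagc
miR-30e-5p: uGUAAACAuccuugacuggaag
miR-125a-5p: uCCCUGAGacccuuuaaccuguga
miR-125b-5p: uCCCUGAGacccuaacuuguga
miR-125b-1-3p: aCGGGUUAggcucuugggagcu
miR-125b-2-3p: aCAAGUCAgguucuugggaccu

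The libraries differed widely in depth, with 1255622 counts in library 1, 549924 in library 2 and 83170 in library 3. A level is given as the percent of a library's counts, so that levels are shares and not amounts per cell. Hence fewer cells of a type and less of a microRNA per cell cannot be told apart. Of 850 arms listed, those with the same matched mature sequence, or the same name where none was matched, were summed. This gave 781 microRNAs, and 163 of these were at 0 in all 3 libraries. At least 10 counts were reached by 339 microRNAs in library 1, 286 in library 2, 186 in library 3 and 181 in all 3. The order followed depth, but thinning libraries 1 and 2 to the depth of library 3 left 156 and 165, fewer than the 186 of library 3. The 3 counts taken as the floor of detection were 0.000239%, 0.000546% and 0.00361% of libraries 1, 2 and 3, so that 1 count meant about 15.1 times more in library 3 than in library 1. Intervals and floors cover counting error only. Library 3 also stood apart in its profile and in markers of other cell types, as given below. Whether RNA of other cells entered it was not tested, so its shares, and means over 3 libraries, describe the libraries as deposited.

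The labelled cell type was checked in the polyadenylated RNA libraries of the same fraction, in CPM, counts scaled to the library total. All 7 fibroblast markers had counts, and their sum was 10193 to 12250 CPM, led by Col1a1 (6175 to 7499 CPM), a chain of type I collagen. Smooth muscle actin, Acta2, which activated fibroblasts also make, stood at 7237 to 8885 CPM. Myh11, a more specific smooth muscle gene, had 181 to 223 CPM, beside the fibroblast genes Dcn (178 to 198 CPM) and Postn (130 to 213 CPM). Of the leukocyte genes Ptprc had 0.278 to 1.11 CPM and the macrophage gene Cd68 18.8 to 30.1 CPM. Endothelial Pecam1 was listed at 0 in all 3 while endothelial Cdh5 was at 39.7 to 54.2 CPM. The myocyte gene Myh6 had 448 to 586 CPM, so that a myocyte transcript was counted in this fraction.

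A single microRNA led the repertoire. miR-22-3p, which is broadly made in heart and muscle, held 28.3% of counts in library 1, 22.98% in library 2 and 19.9% in library 3 (mean 23.8% ± 4.25, SD, n = 3). It was first in every library. miR-143-3p followed with 9.07%, 8.15% and 11.9% (mean 9.70% ± 1.94). miR-21a-5p held 7.98%, 8.21% and 5.75% (mean 7.31% ± 1.36). miR-143-3p and miR-21a-5p held ranks 2 and 3 on the mean, but in library 2 their order was turned. The gap from rank 1 to rank 2 was 3.30 times the larger SD of the pair, that from rank 2 to rank 3 was 1.23 times, and that from rank 3 to rank 4 was 2.89 times.

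**Figure D1:**
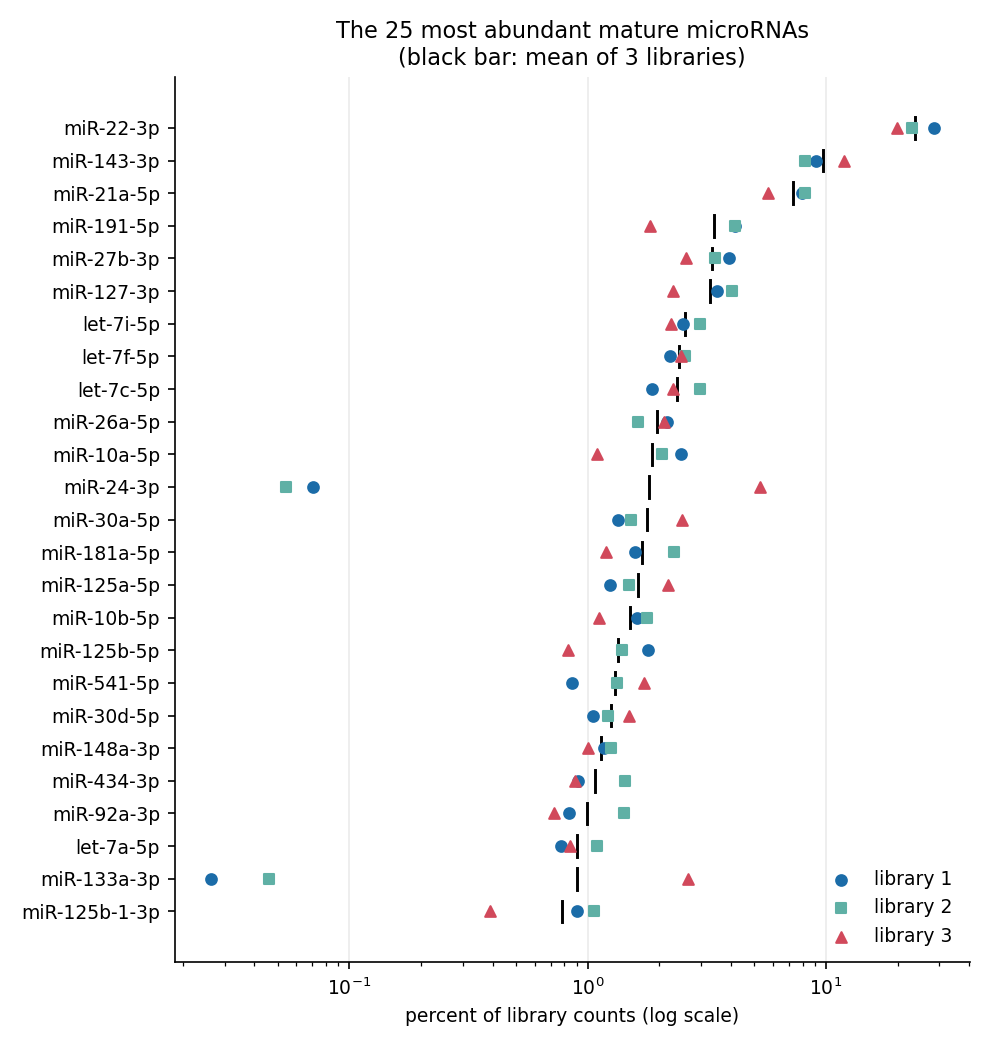
Percent of library counts (x axis, log scale) of the 25 most abundant mature microRNAs (y axis) in library 1 (circles), library 2 (squares) and library 3 (triangles), with the mean as a black bar. Most microRNAs have their 3 points close together, while miR-24-3p (0.0707%, 0.0542% and 5.31%) and miR-133a-3p (0.0262%, 0.0462% and 2.63%) owe their place to library 3.

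From rank 4 to rank 20 no neighbours differed by more than the larger SD of the pair, so the order there is not resolved by 3 libraries. miR-191-5p (3.38% ± 1.35), miR-27b-3p (3.32% ± 0.676) and miR-127-3p (3.27% ± 0.888) came next. Of these, miR-191-5p was at 4.18%, 4.14% and 1.83%, low in library 3. Then came let-7i-5p (2.57% ± 0.364), let-7f-5p (2.42% ± 0.178) and let-7c-5p (2.37% ± 0.546), members of the family known for holding back growth in differentiated cells. The 3 let-7 members together ranked from place 7 to place 11 in each library. miR-26a-5p (1.96% ± 0.287) and miR-10a-5p (1.87% ± 0.700), whose gene lies in a Hox cluster, closed the leading group.

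Place 12 on the mean belonged to miR-24-3p at 1.81%, a place that only library 3 gave it. Its rank was 76 in library 1, 94 in library 2 and 4 in library 3, and without library 3 it would stand 85th. The remaining members of the first 20 were miR-30a-5p (1.78% ± 0.615), miR-181a-5p (1.70% ± 0.558), miR-125a-5p (1.64% ± 0.481), miR-10b-5p (1.502% ± 0.347), miR-125b-5p (1.34% ± 0.487), miR-541-5p (1.31% ± 0.434), miR-30d-5p (1.26% ± 0.225) and miR-148a-3p (1.14% ± 0.126). miR-148a-3p kept places 17, 20 and 20. miR-30a-5p and miR-541-5p were highest in library 3, and miR-125b-5p lowest there.

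Counts were concentrated in few molecules. The 10 most abundant microRNAs of each library held 66.4%, 61.7% and 57.6% of its counts, and the 20 most abundant held 79.9%, 77.0% and 73.6%. It took 5, 6 and 7 microRNAs to reach 50% of counts, and 38, 41 and 49 to reach 90%. By all of these measures library 1 was the most concentrated and library 3 the least. Of the 20 leading on the mean, 18 were in the first 20 of library 1, 18 in that of library 2 and 19 in that of library 3. At 0.1% of counts or more stood 70, 70 and 77 microRNAs, which together held 96.3%, 95.6% and 95.3%.

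Among microRNAs matched to a mature sequence, U was the first base of 49.0%, 52.8% and 58.7% of counts and A that of 42.0%, 38.0% and 35.2%. The A share came largely from miR-22-3p, since with miR-22-3p left out U was the first base of 72.5%, 71.6% and 78.8%. By kind of sequence rather than by count, 38.4% of matched microRNAs began with U. A length of 22 bases was held by 74.3%, 71.6% and 75.6% of counts.

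Grouped by seed, the first 8 families held 69.0%, 65.2% and 59.4% of counts. The miR-22 family had only miR-22-3p counted in it and so kept 23.8%. The let-7 family came second with 8.54%, 11.1% and 9.47% (mean 9.71% ± 1.31), and it had more counted members, 9, than any other of the first 8. Its leading member, let-7i-5p, held 29.3%, 26.6% and 23.6% of the family. Behind the 3 leaders stood let-7a-5p at 0.905%, let-7b-5p at 0.523%, let-7d-5p at 0.366%, let-7e-5p at 0.323%, let-7g-5p at 0.166% and miR-98-5p at 0.0802% (means). The family's mean differed from that of miR-143-3p (9.70%) by far less than either SD, with let-7 the higher of the pair in library 2 alone.

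The miR-21 seed, at 7.31%, again rested on 1 counted member. The miR-30 family, known for restraining connective tissue growth factor, held 2.79%, 3.24% and 5.59% (mean 3.87% ± 1.503) in 5 members. miR-30a-5p gave 48.0%, 46.9% and 44.4% of it. miR-27b-3p made up 96.7%, 97.1% and 95.6% of the miR-27 family, whose total was 3.44% ± 0.682. The miR-191 family (3.38%) had 1 member, and the miR-10 family (3.37% ± 1.01) was divided between miR-10a-5p and miR-10b-5p, with 60.5%, 53.5% and 49.7% on miR-10a-5p. Library 3 was the highest of the 3 in the miR-30 family and the lowest in the miR-21, miR-27, miR-191 and miR-10 families.

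The miR-125 seed, at rank 10 and named after its values were seen, had the smallest SD of the 14 most abundant families. It held 3.16%, 3.04% and 3.08% (SD 0.0598). The members behind this total differed more. miR-125a-5p gave 39.3%, 49.0% and 70.5% of the family, and miR-125b-5p was at 1.80%, 1.402% and 0.828% of all counts.

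**Figure D2:**
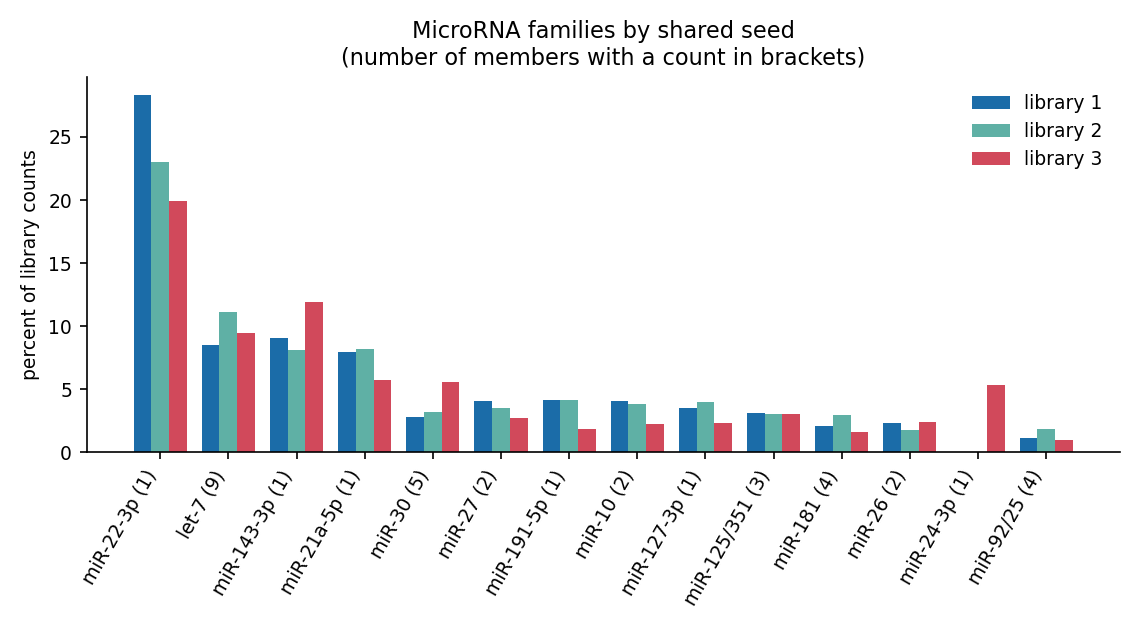
Percent of library counts (y axis, from 0) of the 14 most abundant seed families (x axis, with the number of members that had a count) in libraries 1, 2 and 3. miR-22-3p stands above all others, let-7 and miR-143-3p are nearly level at 9.71% and 9.70% on the mean, and the bar of miR-24-3p is visible only in library 3.

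Many microRNAs are transcribed together from neighbouring hairpins, and 53 groups of precursors lay within 10 kb of a neighbour on the same strand, by the positions of mouse build mm9 in the deposited table. They held 43.2%, 47.5% and 51.6% of counts. The pair of miR-143 and miR-145a on chromosome 18 (61807484 to 61808907, minus strand) held 9.28%, 8.49% and 12.8%. Within the pair miR-143 gave 97.9%, 96.3% and 93.0%, so that miR-145a was the minor product in every library, at 0.198%, 0.315% and 0.899%.

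Neighbours were also far from equal in the miR-23b, miR-27b and miR-24 group on chromosome 13 (63401800 to 63402571). It held 4.18%, 3.68% and 7.87%. miR-27b made up 94.8% and 94.9% of the group in libraries 1 and 2 but 33.4% in library 3. miR-24 made up 1.24%, 1.11% and 64.8%, by the rows placed at this locus. The same mature miR-24-3p is also listed on chromosome 8, and its reads cannot tell which locus made them. miR-23b stayed at 0.167%, 0.146% and 0.142% of all counts, so of the 3 members only miR-24 was higher in library 3 than in both others.

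The imprinted Dlk1-Dio3 region on chromosome 12, whose microRNAs are made from the maternal chromosome, gave 2 of the 5 groups with the highest share. The first (110801954 to 110833596) held 4.90%, 6.03% and 3.77% in 11 precursors, with miR-127 at 71.7%, 66.8% and 60.8% of it and miR-434 at 20.8%, 25.2% and 24.6%. The second (110947275 to 110986159) held 2.31%, 2.96% and 3.51% in 33 precursors. miR-541 gave 37.4%, 44.8% and 49.4% of the second group and miR-411 29.2%, 24.5% and 23.8%. A smaller group between them, with miR-341, miR-370 and miR-1188, held 0.0269%, 0.0284% and 0.0313%. Taken by name, 43 precursors of the region summed to 7.14%, 8.94% and 7.25% of counts (mean 7.78% ± 1.01). The sums of the libraries lay close together although library 3 was the lowest in the first group and the highest in the second.

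miR-191 and miR-425 on chromosome 9 (108470652 to 108471181) held 4.23%, 4.201% and 1.90%, of which miR-191 gave 98.8%, 98.7% and 96.5%. miR-425-5p itself was the steadiest microRNA between libraries, at 0.0496%, 0.0509% and 0.0493%. Its neighbour miR-191-5p was lower in library 3 (1.83%) than in libraries 1 and 2 (4.18% and 4.14%). In the 3-member group of miR-99b, let-7e and miR-125a on chromosome 17, named after its values were seen, the total was 2.55%, 2.75% and 2.72% while miR-99b was at 0.984%, 0.830% and 0.273% and miR-125a at 1.25%, 1.496% and 2.19%. The miR-17-92 group on chromosome 14, also named afterwards, was nearly all miR-92a, with 96.8%, 98.2% and 92.9% of its counts. This is by the rows placed at that locus, and miR-92a-3p is also listed on the X chromosome. miR-17, a growth-linked member, held 0.0127%, 0.0105% and 0.0240% of the library.

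Arm use was followed in 459 precursors. Both arms were listed for 265, and 110 of these had at least 20 counts over both arms in each library. By the mean over libraries, 43 of the 110 placed more than 90% of counts on the 5p arm, 38 more than 90% on the 3p arm, and 29 lay between. Of the 110, 90 were in the same class in all 3 libraries. The 3p arm held 55.5%, 51.4% and 54.8% of the counts of these precursors. Leaving out miR-22 and miR-143, it held 29.0%, 29.5% and 34.6%.

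The abundant 3p precursors were nearly one-sided. miR-22 had 71, 19 and 7 counts on its 5p arm, a 5p share of 0.0199%, 0.0150% and 0.0422%. The exact 95% intervals of these shares were 0.0156% to 0.0252%, 0.00905% to 0.0235% and 0.0170% to 0.0869%, and they overlap. miR-143 gave 99.8% to the 3p arm in each library. On the mean the 3p share was 98.8% for miR-27b, 99.9% for miR-127, 98.2% for miR-148a, 92.9% for miR-434, 99.6% for miR-92a and 99.98% for miR-133a. miR-434 was the least one-sided of them, with 89.1%, 94.7% and 94.95%.

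miR-125b was the most abundant precursor that kept both arms. It placed 65.2%, 55.9% and 65.8% of counts on the 5p arm (mean 62.3% ± 5.53). The mature 5p sequence is made by 2 loci, while the 3p sequences differ and can be assigned. The 3p arm of the chromosome 9 locus, miR-125b-1-3p, had 11324, 5835 and 323 counts, against 7641, 2894 and 90 counts for the 5p arm listed at the same locus. In every library the 3p row of that locus exceeded its 5p row, with the reservation that 5p reads of the copies can be placed at either. At the chromosome 16 locus the 3p arm had 719, 235 and 35 counts beside 14924, 4815 and 599 on the 5p arm.

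Precursors that kept both arms differed in how steady they were. let-7d placed 72.0%, 72.8% and 74.6% on the 5p arm, miR-423 67.6%, 73.7% and 69.3%, miR-151 23.8%, 17.5% and 27.4%, and miR-199a 16.0%, 13.1% and 11.9%. For let-7d the 3 intervals (70.8% to 73.2%, 71.3% to 74.2% and 69.5% to 79.3%) overlapped. Libraries 1 and 2 differed beyond counting error in miR-423 (66.6% to 68.6% against 72.6% to 74.9%), miR-151 (22.95% to 24.6% against 16.4% to 18.6%) and miR-199a (15.3% to 16.7% against 12.0% to 14.2%). The next 3 differed most in library 3. miR-24 gave 39.3% and 41.7% to the 5p arm in libraries 1 and 2 and 1.63% in library 3 (interval 1.28% to 2.04%). miR-411 gave 98.0%, 97.0% and 74.8% (71.4% to 78.0% in library 3), and miR-30e 83.5%, 75.9% and 93.5% (91.1% to 95.5%).

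The leading arm itself changed between libraries in 4 precursors, which were named for that and so after their values were seen. miR-152 placed 65.2% and 61.7% on the 5p arm in libraries 1 and 2 and 13.9% in library 3 (8.33% to 21.4%). miR-379 placed 35.7%, 26.7% and 86.0% there (77.6% to 92.1% in library 3). miR-1981 had 40.9%, 56.1% and 80%, and miR-673 had 69.5%, 60.5% and 45.8%, both on few counts, with 30 and 24 in library 3. Across all 110 precursors the median difference in 5p share was 0.598 percentage points between libraries 1 and 2, 1.11 between 1 and 3 and 1.13 between 2 and 3.

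**Figure D3:**
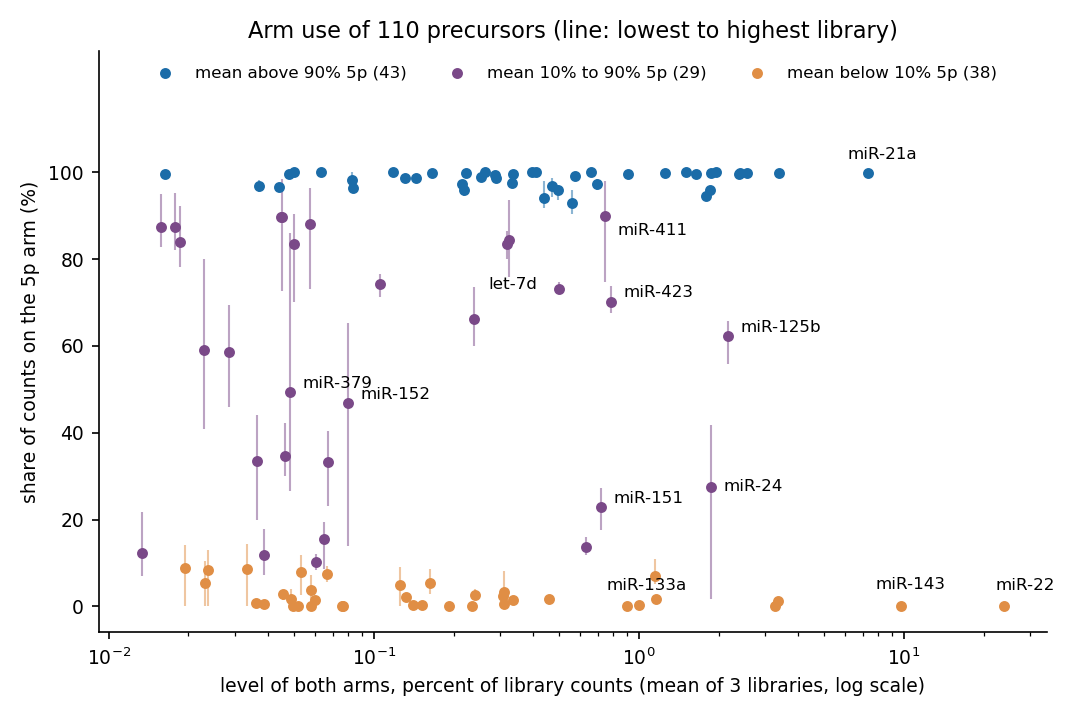
Share of counts on the 5p arm (y axis, %) against the summed level of both arms (x axis, percent of library counts, log scale) for the 110 precursors with at least 20 counts in each library, points at the mean and lines from the lowest to the highest library. Most points lie at the top or bottom edge, 29 lie between, and the long lines include miR-24, miR-152 and miR-379.

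Some mature microRNAs are encoded at more than 1 locus, and reads of identical sequence cannot tell which one made them. The deposited counts nonetheless differ between such copies, so the values depend on how reads were placed. let-7c-5p had 84.9%, 83.8% and 82.3% of its counts at the chromosome 16 locus and the rest at chromosome 15. let-7f-5p had 71.2%, 69.8% and 69.7% on the X chromosome, and miR-181a-5p 74.5%, 76.3% and 74.4% on chromosome 2. These splits were steady between libraries. miR-26a-5p (78.1%, 76.5% and 68.1% on chromosome 10), miR-125b-5p (66.1%, 62.5% and 86.9% on chromosome 16) and miR-24-3p (72.9%, 75.2% and 96.1% on chromosome 13) were less so.

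The table also lists 68 arms on the strand opposite to an annotated precursor, with 5.57%, 5.96% and 9.92% of counts. In 24 of the 68, the row carries the sequence of a known mature microRNA, and these hold 97.2%, 96.2% and 82.2% of the opposite-strand counts. The most abundant is miR-191-5p (chromosome 9, 108470652 to 108470672), all of whose counts stand there. The chromosome 13 copy of miR-24-3p, with 647, 224 and 4244 counts, is another such row. In the table both of these rows carry a tilde after the arm name, as 58 rows do, whose meaning the sources used here leave unstated. let-7f-5p had 8015, 4268 and 621 counts on such a row, let-7e-5p 3843, 2267 and 209, and miR-409-3p 2611, 1772 and 143. These rows name a precursor by a genomic clone, and the mature sequence is on the strand opposite to the one annotated for it.

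Among the opposite-strand rows with no matched mature sequence, the row opposite Gm25301 had 0.0887%, 0.115% and 0.743%, and the row opposite the 3p arm of Mir486 had 0.0628%, 0.104% and 0.987%. Such a row can still be a known microRNA, since miR-143-3p and miR-486-5p had no matched sequence either. All 44 unmatched rows together held 0.157%, 0.225% and 1.77%. Library 3 was the highest in each of these.

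Lists of microRNAs by function add what the first 20 leave out. The miR-29 list, collagen repressors, held 0.399%, 0.270% and 0.325%, nearly all of it miR-29a-3p (0.388%, 0.258% and 0.256%), with miR-29c-3p at 0.00534%, 0.00327% and 0.0277%. miR-199a-3p, whose sequence miR-199b-3p shares, was at 0.718%, 0.659% and 0.403%, miR-199a-5p at 0.126%, 0.0898% and 0.0505%, and miR-214-3p, from the same mesenchymal transcript, at 0.0468%, 0.0440% and 0.0757%. miR-222-3p and miR-221-3p, which repress a cell cycle inhibitor, were at 0.452% and 0.154% on the mean. The p53-induced miR-34 list held 0.728%, 0.562% and 0.428%, with miR-34c-5p at 0.478% on the mean, miR-34b-3p at 0.0544% and miR-34c-3p at 0.0181%. Hypoxia-induced miR-210-3p stayed at 0.0305%, 0.0265% and 0.0337%.

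Within the miR-15 list, a growth-restraining group, miR-16-5p held 0.824%, 0.622% and 0.530%, and miR-15b-5p (0.0214%) and miR-15a-5p (0.0161%) were far lower on the mean. miR-31-5p was at 0.479%, 0.646% and 0.577%. miR-103-3p stood at 0.234% and its near-copy miR-107-3p at 0.0144%. miR-130a-3p had 0.308% and miR-301a-3p 0.0357%. miR-182-5p was at 0.348%, 0.452% and 0.204% and miR-183-5p at 0.0505%, 0.0562% and 0.0192%. Their neighbour miR-96-5p had 1 count in all. miR-25-3p (0.331%) and miR-93-5p (0.0811%) followed miR-92a-3p (0.994%) in the miR-17-92 list. In the miR-181 list miR-181b-5p had 0.408% and miR-181c-5p 0.0781%, and in the miR-26 list miR-26b-5p had 0.209%. miR-148b-3p, at 0.154%, 0.143% and 0.0902%, followed miR-148a-3p in its list, and miR-152-3p was at 0.0148%, 0.0191% and 0.126%. miR-145a-5p, the other product of the miR-143 transcript, held 0.187%, 0.307% and 0.887%.

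Markers of other cell types were low in libraries 1 and 2. The 8 muscle precursors summed to 0.0272% and 0.0484% there, almost all miR-133a-3p, with miR-1b at 0 in all 3 libraries. The endothelial marker miR-126a, both arms together, had 0.178% and 0.161%, mainly as miR-126a-5p (0.154% and 0.135%). The 3 erythroid precursors had 0.0586% and 0.0997%, mainly as miR-486-5p, and miR-451a-5p had 18 and 6 counts. The 3 leukocyte precursors listed had 0.0271% and 0.0338%, mainly as miR-155-5p, which fibroblasts can also make; miR-150-5p had 32 and 18 counts and miR-223-3p 3 and 0. Epithelial (28 and 12 counts in all), neural (12 and 7) and hepatocyte (3 and 1) markers had the fewest counts of the lists.

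Every one of these marker lists was higher in library 3. A rise there was not particular to them. Among the 116 microRNAs with at least 30 counts in each library, 46 were higher in library 3 than in both others and 57 lower. That minimum favours microRNAs high in library 3. Among lists that mark no other cell type, miR-146 was at 6.52 times the mean of libraries 1 and 2. The list of miR-10, miR-99 and miR-100 was at 0.509 times. The muscle list reached 2.72% (interval 2.61% to 2.83%), 71.8 times the mean of libraries 1 and 2. Nearly all of it was miR-133a-3p with 2191 counts. The others named in the list were higher in library 3 too, on few counts. miR-1a-3p, which is transcribed with miR-133a, had 0.000557%, 0.000364% and 0.0433% (7, 2 and 36 counts). miR-133b-3p had 0.000159%, no count and 0.0132% (2, 0 and 11 counts). miR-499-5p had 0.000239%, 0.000364% and 0.0108% (3, 2 and 9 counts). Those on fewer than 3 counts lie below the floor of detection, 0.000239% in library 1 and 0.000546% in library 2. The erythroid list reached 0.756%, 9.56 times, mainly as miR-486-5p at 0.0569%, 0.0966% and 0.705% (586 counts in library 3). Its factor is thus chiefly that of miR-486-5p and is not taken as a measure of red cells. miR-451a-5p, the defining red cell microRNA, had 0.00143%, 0.00109% and 0.0349% (29 counts in library 3). The endothelial marker reached 0.612%, 3.62 times, and the leukocyte list 0.117%, 3.83 times, with miR-155-5p at 0.0890% and miR-150-5p at 0.0265% against 0.00255% and 0.00327%. The epithelial list had 0.0132% in library 3 (11 counts), the neural list 0.00601% (5 counts) and miR-122-5p 0.00842% (7 counts). The part of these cell types in the other differences of library 3 was not tested.

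**Figure D4:**
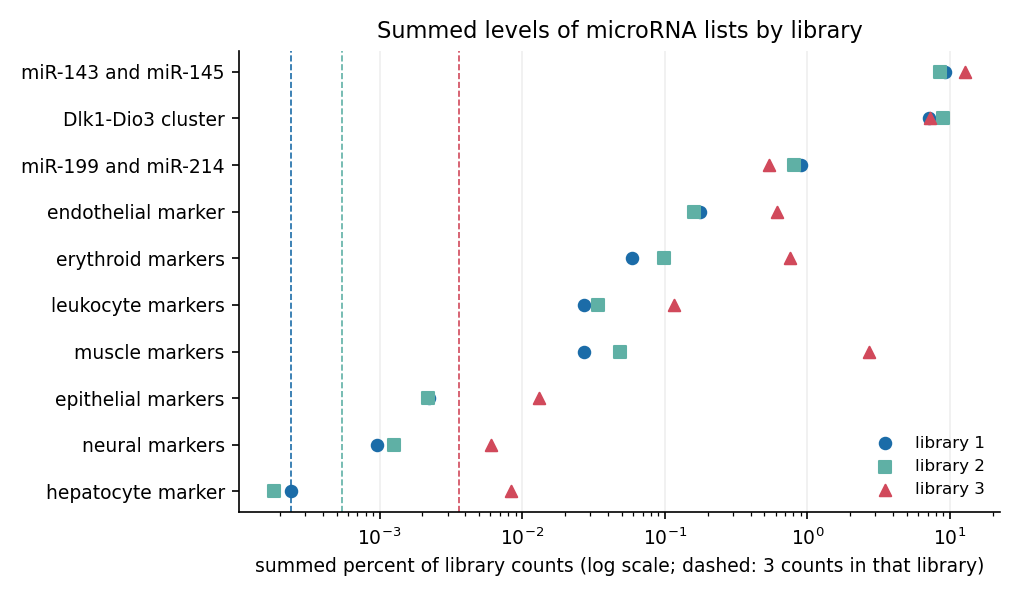
Summed level (x axis, percent of library counts, log scale) of 10 microRNA lists (y axis) in libraries 1, 2 and 3, with dashed lines at 3 counts of each library. The triangles of library 3 lie to the right of libraries 1 and 2 in every marker list of another cell type. The distance is largest in the muscle markers (2.72% against 0.0272% and 0.0484%). The triangle also lies to the right for miR-143 and miR-145 (12.8% against 9.28% and 8.49%). For miR-199 and miR-214 it lies to the left (0.536% against 0.905% and 0.803%), while the Dlk1-Dio3 sums lie together.

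The spread between libraries was examined in the 116 microRNAs with at least 30 counts in each, which held 98.4%, 98.1% and 97.7% of counts. Between libraries 1 and 2, 2 of the 116 lay more than 2-fold apart, against 40 between libraries 1 and 3 and 32 between libraries 2 and 3, counts that rest on that minimum. Across these microRNAs, which share library and depth, Pearson's r of log10 levels was 0.985, 0.780 and 0.8004 in the same order. To turn the profile of library 1 into that of library 2 over these microRNAs, 9.58% of counts would have to be moved, and 24.1% into that of library 3. Libraries 1 and 2 were not 1 library deposited a second time, since chi-square over degrees of freedom was 66.2 between them.

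The biological coefficient of variation, edgeR's estimate of the spread beyond counting noise, was 0.503 over 3 libraries and 0.229 over libraries 1 and 2. The median coefficient of variation was 29.8%, and 16.6% without library 3, there over the 207 microRNAs with at least 30 counts in both. The steadiest microRNAs after miR-425-5p were miR-484-5p (0.0501%, 0.0529% and 0.0541%), miR-532-5p (0.0420%, 0.0395% and 0.0385%), miR-181d-5p (0.0628%, 0.0662% and 0.0601%), miR-411-5p (0.663%, 0.704% and 0.624%) and miR-34b-3p (0.0586%, 0.0516% and 0.0529%). Their highest library was 1.03 to 1.14 times the lowest. miR-425-5p, miR-484-5p, miR-532-5p, miR-181d-5p and miR-34b-3p had 41, 45, 32, 50 and 44 counts in library 3, where counting error is wider than these differences. For miR-411-5p the interval in library 3, 0.572% to 0.680%, was also wider than its range between libraries.

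**Figure D5:**
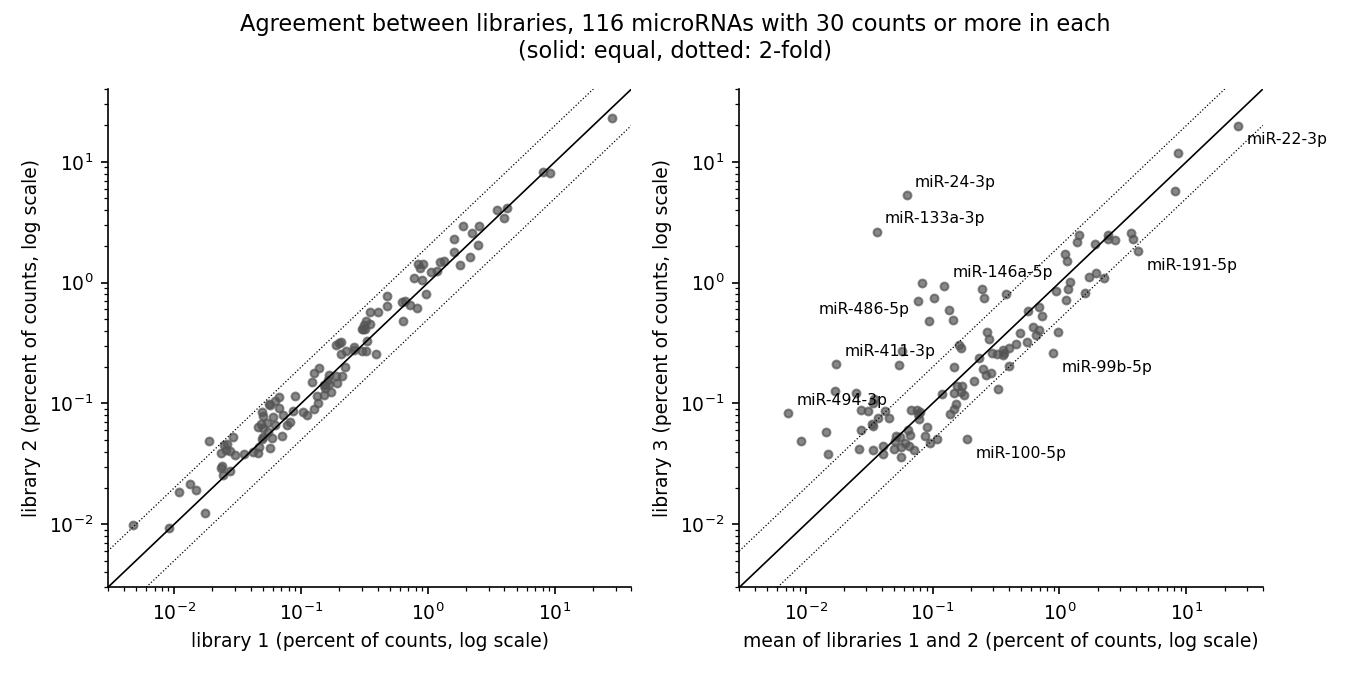
Levels of the 116 microRNAs with 30 counts or more in each library (percent of counts, log scales on both axes), library 2 against library 1 on the left and library 3 against the mean of libraries 1 and 2 on the right, with lines at equality and at 2-fold. On the left 2 points pass 2-fold; on the right 29 lie above and 8 below it, with miR-24-3p and miR-133a-3p farthest out.

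Library 3, the shallowest, is described here apart, with no test since it is 1 library. Of the 116 microRNAs 29 were more than 2-fold above the mean of libraries 1 and 2, and 8 were more than 2-fold below. Of the 116, 46 were higher in library 3 than in both others and 57 lower. A minimum of 30 counts is a higher share in the shallow library, so it admits microRNAs that are high there and drops some that are low. A minimum level of 0.0361% on the mean of libraries 1 and 2 was also used, a choice made after seeing the data. With it, 16 of 107 were more than 2-fold above and 10 below. Of the 107, 30 were higher in library 3 than in both others and 63 lower. The 29 held 17.2% of library 3 and 2.23% of the mean of the others. At the top, miR-24-3p had 5.31% (interval 5.16% to 5.46%) against 0.0707% and 0.0542%, 85.0 times the mean. Both of the rows summed for it were higher in library 3. The chromosome 13 row held 0.0515%, 0.0407% and 5.10% and the chromosome 8 row 0.0192%, 0.0135% and 0.204%. miR-133a-3p was at 2.63% (2.53% to 2.75%), 72.8 times the mean.

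The other microRNAs with the widest range between libraries were also highest in library 3. This ranking used the minimum of 30 counts in each library, which favours microRNAs that are high there. On the mean of libraries 1 and 2, miR-494-3p was at 0.00730% and miR-411-3p at 0.0174%. Both fall below the minimum level of 0.0361% and would not be ranked under it. miR-494-3p had 0.00478%, 0.00982% and 0.0830%, miR-411-3p 0.0133%, 0.0215% and 0.210%, the row opposite the 3p arm of Mir486 0.0628%, 0.104% and 0.987%, and miR-486-5p 0.0569%, 0.0966% and 0.705%. The factor over the mean of libraries 1 and 2 was 11.4, 12.1, 11.9 and 9.18. The last 2 had no matched sequence and were not summed, and whether they are the same mature microRNA was not tested. miR-146a-5p and miR-146b-5p, feedback regulators of inflammatory signalling, were at 0.943% against 0.132% and 0.115%, and at 0.477% against 0.104% and 0.0844%. The lower bound in library 3, 0.878% for miR-146a-5p and 0.649% for miR-486-5p, lay above both other libraries.

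On the low side of library 3, named after their values were seen, were miR-100-5p (0.210%, 0.167% and 0.0505%) and miR-99b-5p (0.969%, 0.811% and 0.262%), miR-125b-1-3p (0.902%, 1.06% and 0.388%), miR-298-5p (0.331%, 0.326% and 0.131%), miR-191-5p, miR-199a-5p, miR-10a-5p and miR-434-5p. miR-99a-5p, the third member of the miR-99 group, was also lowest there, at 0.302%, 0.271% and 0.179%. For miR-10a-5p the upper bound in library 3 was 1.17%, below the 2.47% and 2.05% of the others. The 8 held 3.86% of library 3 and 9.01% of the mean of the others. The part of depth in these differences was not tested.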

How the data were processed

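Per the labels' protocols, adapters were ligated to total RNA and libraries prepared with TruSeq small RNA reagents. The authors deposited whole-number counts per microRNA arm, not normalised. Per the submitters' processing notes the tools were Bowtie, TopHat 1.3.0, HTSeq, DESeq and edgeR and the build mm9; which tool made these counts is not stated. Adapter trimming, mismatches and the placing of reads that fit several loci are likewise not given, and can shift counts between copies and near-identical family members. Small RNA ligation and PCR favour some sequences, so levels of different microRNAs are shares of reads, not molecules.

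The row of totals was left out. Of 850 rows, 625 were matched to a RefSeq mature sequence (GRCm38.p6) found in the transcript the row names, or in its reverse complement for opposite-strand rows; these held 87.2%, 87.8% and 78.3% of counts in libraries 1 to 3. Other rows kept their gene symbol and arm. Families were formed by seed, or by name where no sequence was matched. A level is the count over the library total. Intervals are exact (Clopper-Pearson, 95%). Spread was estimated with edgeR 4.0.16 in R 4.3.3, common dispersion with an intercept only, on rows kept by filterByExpr (minimum count 10). Other steps used Python 3.11.15, scipy 1.17.1 and matplotlib 3.10.9. Dispersion and thinning code was tested on simulated data.

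There was 1 group, so no test between groups was made. Named by rule were the first 20 microRNAs and 8 families, 3 members per list, the first 8 precursors mostly 3p and the first 8 using both arms, the 6 widest and 6 steadiest microRNAs, 5 opposite-strand rows and 5 clusters. The members and lists were chosen with earlier results of these data known. Alternatives were other totals, copies, families, minimums, scalings (DESeq2 1.42.0 size factors, TMM) and leaving out each library.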

Additional observations from a re-analysis of the deposited data

How the results depend on the processing

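Of 248 alternative values 221 stayed within the spread or within 1.5 times the value reported, and 27 moved. Families by name instead of seed raised miR-27 to 5.65% (with miR-23 and miR-24) and miR-10 to 4.47% (with miR-99 and miR-100). Leaving the 3 most abundant microRNAs out of the total raised let-7 to 16.4%, miR-30 to 6.47%, miR-27 to 5.87%, miR-191 to 5.80% and miR-10 to 5.78%. Without opposite-strand rows miR-191 has no counts and gave no value, let-7f-5p was at 1.83% and miR-24-3p at 0.0872%. With the highest copy in place of the sum let-7f-5p was at 1.76% and miR-26a-5p at 1.51%. With 1 count as the minimum, 574 and 490 microRNAs were detected in libraries 1 and 2 and 358 in every library. Thinned to 83170 counts, libraries 1 and 2 kept 156 and 165. Leaving out 1 library at a time, the number detected in every library ran from 181 to 285, precursors using both arms from 27 to 53, the biological coefficient of variation from 0.229 to 0.580 and the median coefficient of variation from 16.6% to 33.9%. In each of these 4 the value without library 3 (285, 53, 0.229 and 16.6%) was the one that moved by over 1.5 times. At 100 counts per precursor 20 were mostly 3p and 11 used both arms; with 1 count 67 were mostly 5p, 61 mostly 3p and 75 between; with classes at 80%, 14 lay between. Without a filter the median coefficient of variation was 86.9%. miR-24-3p (1.81%), whose SD exceeds its mean, was at 0.296% in pooled counts and 0.0625% without library 3. By the rule used here pooled counts moved no value, miR-24-3p included because its SD is so wide. TMM and DESeq2 size factors were applied only to the biological and the median coefficient of variation, and moved neither. Levels and family shares were not recomputed with them. A minimum level on libraries 1 and 2 alone, added after seeing the data, left 16 microRNAs over 2-fold higher in library 3 in place of 29, and 10 over 2-fold lower in place of 8. No paired analysis was possible because the results come from no test within 1 group. Library 3 limits what can be seen: 104 microRNAs with at least 10 counts in libraries 1 and 2 had 0 to 9 in it.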
